A study of Mus musculus with 8 samples.

Results

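The genes described here encode the machinery that copies DNA in S phase, 43 genes of 21938 annotated coding genes. They were chosen by name from the known replication factors and not by any measured value. They were followed through chromatin accessibility, the openness of DNA to an enzyme, in mouse hepatocytes before and after partial hepatectomy (PHx), the surgical removal of most of the liver mass. Bulk ATAC-Seq, which marks open chromatin by where a transposase can insert adapters, was run on hepatocytes isolated by collagenase perfusion from C57BL/6 mice (C57BL/6J in the methods of the study) aged 10 to 12 weeks and fed a normal diet, with no transgene or drug named in the labels. There were 2 libraries from undamaged liver (0 h) and 2 each at 48, 72 and 96 h after PHx. The 0 h livers are described as healthy and undamaged, so they had no sham operation as far as the labels say. The study describes its bulk replicates at 0 and 48 h as separate hepatocyte preparations, but the labels tie no library to a mouse. The spread between the 2 libraries of a time point may therefore be partly technical. Every p-value below rests on that spread, in the main fit pooled over the 4 time points and moderated across promoters.

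Replication starts at origins. The origin recognition complex (Orc1 to Orc6), with Cdc6 and Cdt1, loads the ring-shaped MCM helicase (Mcm2 to Mcm7) onto DNA while cells are in G1, a step called licensing that geminin (Gmnn) later blocks. The kinase Cdc7 with its partner Dbf4, together with Cdc45 and the GINS complex (Gins1 to Gins4), then switches the helicase on. DNA polymerase alpha and its primase subunits lay down primers, polymerases delta and epsilon extend them with the sliding clamp PCNA that replication factor C (Rfc1 to Rfc5) loads, RPA coats the single strands, and Fen1 and Lig1 join the lagging-strand pieces. Most of these genes are silent or low in resting hepatocytes, which are in G0, and are targets of the E2F factors when hepatocytes re-enter the cell cycle after PHx.

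The data were lists of accessible intervals (peaks), with 105206 to 154577 distinct intervals per library. Each interval carries a fold enrichment of reads over the local background and a −log10 p, by which intervals were ranked within a library, with rank 1 the strongest. Read counts are not part of them, and the depth behind each value is therefore unknown. The median fold enrichment over all coding promoters was lower in the 48 h libraries (7.76 and 8.18) than in the 0 h libraries (10.6 and 11.1), with 9.23 to 10.0 in the 72 and 96 h libraries. Of 8 hepatocyte marker genes (Alb, Apoa1 and others), 5 and 7 had a promoter interval among the 50000 strongest at 0 h, 2 and 4 after 48 h, 2 and 3 after 72 h, and 4 and 5 after 96 h, and Alb had no promoter interval in 5 of the 6 PHx libraries. Among 5 markers each, none of Kupffer cells or lymphocytes reached the 50000 strongest in any library, endothelial markers 0 or 1, stellate cell markers 2 in every library, and cholangiocyte markers 1 to 3. The part of these differences in the results below was not tested.

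To ask how open the replication genes are in resting and in regenerating liver, the strongest interval within 1 kb of a transcription start site was taken for each gene. All 43 genes had such a promoter interval in all 8 lists, at 0 h as well as after PHx, while 60.3% of coding genes did. In 42 of the 43 (97.7%) the interval was among the 50000 strongest of every library, against 81.9% of the 13220 coding genes with a promoter interval in every list. The exception was Rpa2, a subunit of the single-strand binding protein RPA, which ranked 52404 in the second 72 h library. At the strong end of the order their share was near that of other promoters, since 11 of 43 (25.6%) were within the 10000 strongest in every library, against 25.3% of the 13220. The median over genes of the median rank was 11476, against 11955 for all coding promoters tested. By fold enrichment the replication promoters sat at a median percentile of 64.9 among all promoters tested.

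**Figure D1:**
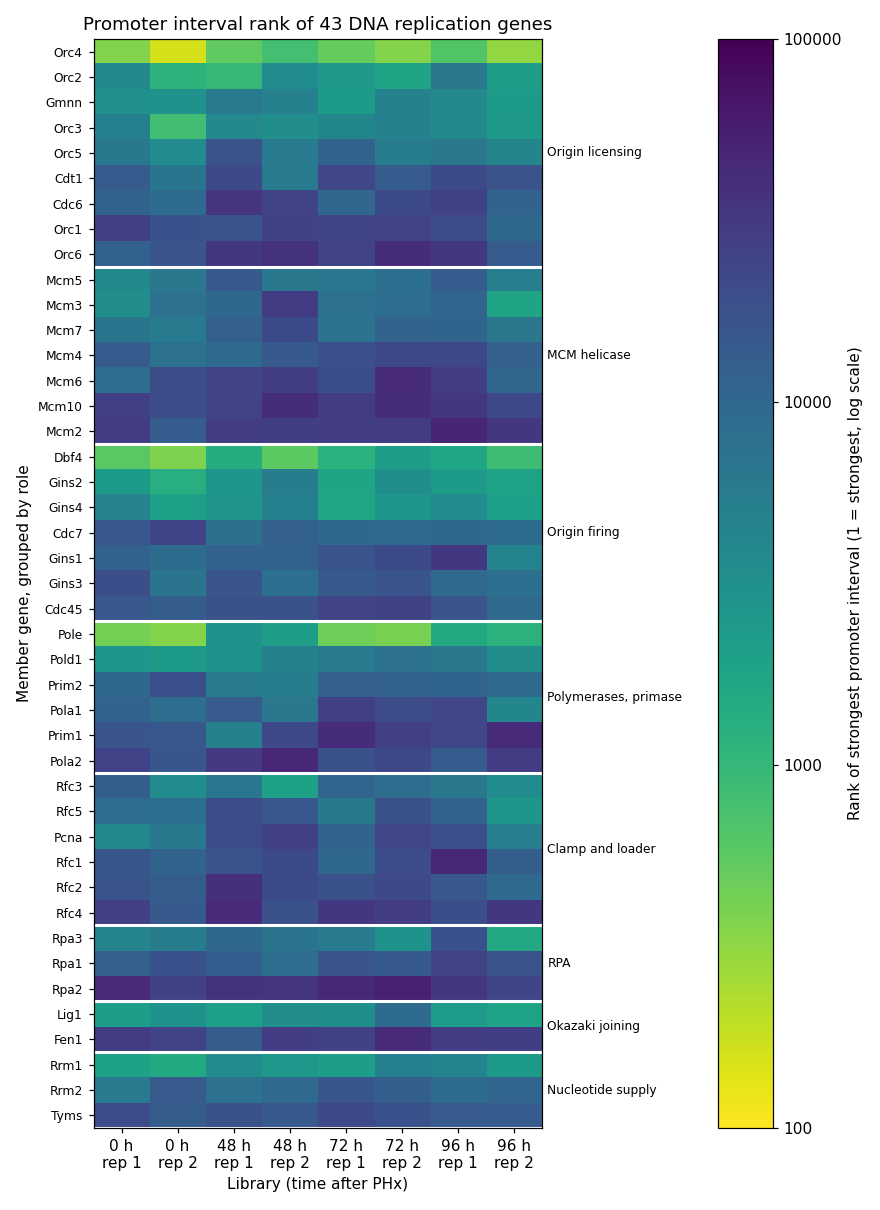
Rank of the strongest promoter interval of each of the 43 genes (rows, grouped by role) in each of the 8 libraries (columns), on a log colour scale where bright colours are strong intervals. Orc4, Pole and Dbf4 were the strongest (median ranks 445, 823 and 1029), and Mcm2 and Rpa2 the weakest (28928.5 and 35741.5).

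The strongest promoter was that of Orc4, a core subunit of the origin recognition complex. Its ranks were 373 and 158 at 0 h, 545 and 791 after 48 h, 517 and 361 after 72 h, and 647 and 307 after 96 h. Pole, the catalytic subunit of the leading-strand polymerase epsilon, ranked 419 and 356 at 0 h, 2915 and 2076 after 48 h, 465 and 408 after 72 h, and 1524 and 1181 after 96 h. Dbf4, the regulatory subunit of the Cdc7 kinase, ranked 587 and 381, then 1371 and 564, 1212 and 2111, and 1668 and 846 at the same times. All 3 start beside a coding gene that runs the other way, Mbd5, Pxmp2 and Slc25a40 respectively, and share the interval with it, so the accessibility of either start could not be told apart. Such a divergent coding neighbour within 1 kb was found for 12 of the 43 genes (27.9%), against 14.2% of all coding promoters tested.

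At the other end of the order stood Orc6, the least conserved subunit of the origin complex, with median rank 28250.5, Mcm2 and Rpa2. Orc6 ranked 11819 and 16004 at 0 h, 32261 and 36116 after 48 h, 24240 and 41606 after 72 h, and 32677 and 13383 after 96 h. The Mcm2 ranks were 29250 and 13383, 28478 and 27590, 28607 and 29609, and 48009 and 33264. For Rpa2 they were 44381 and 25426, 36175 and 35308, 44563 and 52404, and 32363 and 23467. The 2 libraries at 0 h were far apart for Mcm2 and Rpa2, and the second of them held the best Mcm2 rank of all 8. Across roles, the median of the median ranks was 6103.5 for the 9 licensing genes, 9853.5 for the 7 firing genes, 9949 for the 3 nucleotide supply genes and 11326.5 for the 6 polymerase and primase genes. It was 13777 for the 7 MCM genes, and 15333.5 to 15552 for RPA, the joining enzymes and the clamp and its loader. Within each role the range was wide, from 445 to 28250.5 among licensing genes, so the roles overlapped.

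Most intervals lay at the start sites themselves. The summit was within 100 bp of a start in 26 genes and upstream of it in 30, with a median distance of -35.5 bp. In 17 genes it was more than 100 bp away, and in 3 of them more than 500 bp. The summit was at -841 bp in Mcm5, at -642 bp in Prim2 (the large primase subunit) and at 665.5 bp, inside the gene, in Mcm7. These distances are to the nearest GENCODE start. The RefSeq promoter window of Mcm7, chr5:138171217-138171516, overlaps its interval at chr5:138170904-138171507. Mcm7 also has a divergent coding neighbour, Ap4m1, and shares its interval with another coding gene. Mcm3 varied most between libraries, its worst rank being 16.7 times its best, and Tyms, which makes thymidylate, varied least at 1.66 times.

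The promoter sequences were searched for the letters of known motifs. RefSeq promoter windows (GRCm38.p6, the build called mm10, 250 bases before to 50 after the start) were matched for 35 of the 43 genes, and not for Gmnn, Mcm4, Gins1, Gins2, Gins4, Prim2, Pole and Rfc2. 5 upstream stretches are shown because they hold the E2F letters, the CCAAT box bound by NF-Y, or both. They were picked for their letters after the motif search. Capitals mark those matches on either strand, and each sequence runs from 5′ to 3′ along the gene, ending at the base before the start. The stretches of Mcm6, Pola1 and Mcm3 lie within the promoter interval of the gene, and those of Mcm5 and Cdc6 lie outside it. The medians of the 8 libraries were chr8:75108596-75108857 for Mcm5 and chr11:98907453-98907956 for Cdc6. The Cdc6 stretch is upstream of its RefSeq start only. By the annotation used for the intervals, Cdc6 begins at chr11:98907801, and the stretch lies inside the gene.
Mcm6 promoter, chr1:128359706-128359865, minus strand: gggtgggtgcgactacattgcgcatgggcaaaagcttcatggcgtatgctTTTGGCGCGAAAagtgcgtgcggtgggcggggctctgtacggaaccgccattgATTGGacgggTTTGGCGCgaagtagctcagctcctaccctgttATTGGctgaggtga
Mcm5 promoter, chr8:75109349-75109508, plus strand: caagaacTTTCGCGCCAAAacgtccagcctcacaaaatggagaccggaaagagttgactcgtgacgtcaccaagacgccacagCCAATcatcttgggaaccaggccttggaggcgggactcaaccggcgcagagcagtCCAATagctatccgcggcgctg
Pola1 promoter, chrX:93632156-93632315, minus strand: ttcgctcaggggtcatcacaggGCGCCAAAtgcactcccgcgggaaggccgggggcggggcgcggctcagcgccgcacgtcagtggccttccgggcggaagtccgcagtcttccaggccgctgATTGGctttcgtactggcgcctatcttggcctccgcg
Cdc6 promoter, chr11:98907991-98908150, plus strand: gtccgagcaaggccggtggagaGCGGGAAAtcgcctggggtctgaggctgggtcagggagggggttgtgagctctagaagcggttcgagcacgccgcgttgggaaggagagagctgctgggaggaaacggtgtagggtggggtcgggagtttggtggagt
Mcm3 promoter, chr1:20820313-20820472, minus strand: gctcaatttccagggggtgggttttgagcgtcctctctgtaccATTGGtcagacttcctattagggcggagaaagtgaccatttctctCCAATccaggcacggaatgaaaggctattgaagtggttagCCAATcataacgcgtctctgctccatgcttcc

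The E2F letters (TTTCCCGC, TTTCGCGC, TTTGCCGC or TTTGGCGC, on either strand, with overlapping matches counted) were in 12 of the 35 windows (34.3%), against 4.19% of the 10306 tested promoters that were matched and 2.97% of all 16521 matched coding promoters. The 12 were Cdc6, Cdt1, Gins3, Lig1, Mcm3, Mcm5, Mcm6, Orc1, Orc3, Pola1, Pold1 and Rfc3. Mcm6 held 3 matches, at -110, -106 and -47, of which the first pair overlaps. Mcm5 held an overlapping pair at -153 and -149, and in Mcm3 both matches were after the start, at 20 and 39, outside the stretch shown. CCAAT was in 21 windows (60.0%, against 37.8% of tested promoters), and at least 2 copies were in 12 (34.3%, against 14.8%). Both motifs were in 7 windows (20.0%, against 1.78%).

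Other motifs were searched in the same windows. The ETS letters (CCGGAAGT) were in 22.9% of the windows against 8.16% of tested promoters, those of NRF1 (GCATGCGC) in 11.4% against 5.47%, the SP1 letters (GGGCGG) in 74.3% against 67.0%, and the cell cycle genes homology region CHR (TTTGAA or TTCGAA) in 20.0% against 13.1%, with both strands searched. The GC content was 63.0% at the median, from 38.7% in Cdc45 to 74.7% in Dbf4, against 61.7% for tested promoters. A match is a stretch of letters and not a measured binding site. Pcna, Rrm1 and Rrm2 held no E2F letters in these windows.

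**Figure D2:**
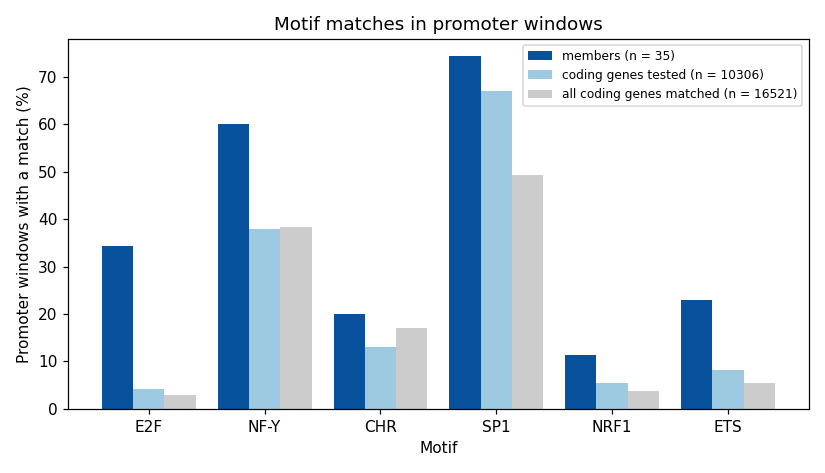
Share of promoter windows (in %) with at least 1 match to each motif, for the replication genes, all coding promoters tested and all coding promoters matched; the NF-Y motif is the CCAAT box. The E2F bars differ most, 34.3% against 4.19% and 2.97%.

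To ask whether the replication promoters changed after PHx, the log2 fold enrichment of 13220 promoters was quantile-normalized over the 8 libraries, so that a change is relative to other promoters, and each time point was compared with 0 h by limma. At 48 h no replication gene was called (adjusted p under 0.05 and a log2 change over 0.5), and neither was any other promoter (0% of 13220 called at 48 h, 0% at 72 h and 0% at 96 h). At an unadjusted p under 0.05, 7 of the 43 genes were lower at 48 h (16.3%, against 5.05% of all promoters) and 1 was higher (2.33%, against 4.78%). The 7 were Pcna, Mcm3, Cdc6, Rfc2, Pole, Pola2 and Rrm1, and the one above was Prim2. With 1 library left out or another fit, the number lower ran from 5 to 10 and the number higher from 0 (without the second 0 h library or any one of the 48 and 72 h libraries) to 2 (without the first 0 h or either 96 h library, with −log10 p as the measure or with no filter). Where 5 were lower without the second 0 h library, 2.62% of all promoters were, and where 10 were lower with only the 2 groups compared, 5.78% were. Over the 43 genes the median log2 change was -0.07, with 31 below 0.

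**Figure D3:**
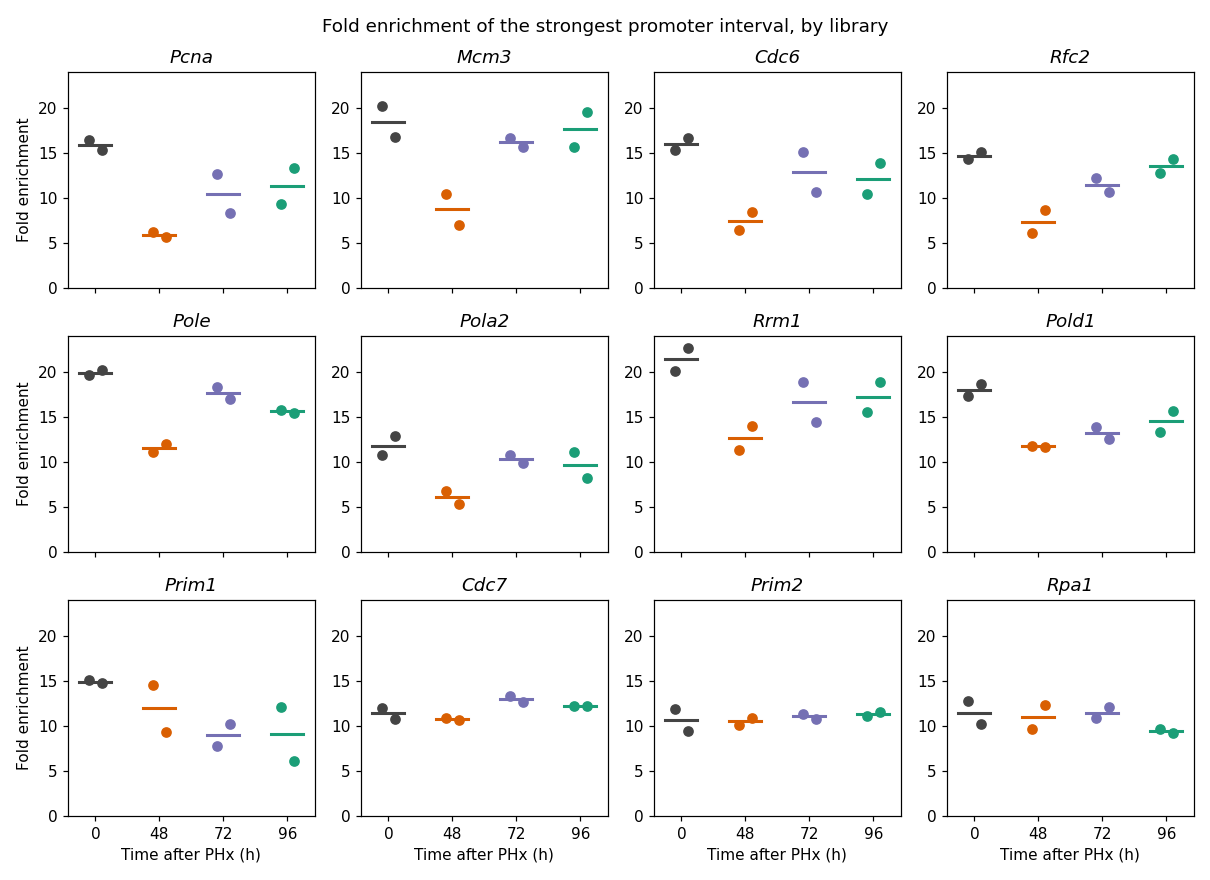
Fold enrichment of the strongest promoter interval (vertical axis, as deposited) in each library (points) at 0, 48, 72 and 96 h, with the mean of the 2 libraries as a bar, for 12 of the genes. Both 48 h points lie below both 0 h points for Pcna, Mcm3, Cdc6, Rfc2, Pole, Pola2, Rrm1, Pold1 and Prim1, while the 0 and 48 h points overlap for Cdc7, Prim2 and Rpa1. The values are not normalized, and the median over all coding promoters was also lower at 48 h (7.76 and 8.18, against 10.6 and 11.1 at 0 h). The share of all promoters separated in this way was not counted. After normalization Prim1 was at 0.06 at 48 h.

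Pcna, which encodes the sliding clamp that holds the polymerases on DNA, had the largest difference. Its fold enrichment was 16.4 and 15.3 at 0 h, 6.16 and 5.59 after 48 h, 12.6 and 8.28 after 72 h, and 9.26 and 13.3 after 96 h. Both 48 h libraries were thus the lowest of the 8 and both 0 h libraries the highest. After normalization the 48 h change was -1.04 ± 0.24 (log2, SE, n = 2 per group), which did not pass the correction (limma, adjusted p = 0.248). The SE here and below is the moderated one of limma. It pools the spread within all 4 time points and is drawn towards a trend over all promoters. The 72 and 96 h changes were -0.50 ± 0.24 (adjusted p = 0.807 by limma) and -0.42 ± 0.24 (adjusted p = 0.999). Without 1 library the 72 h change ran from -0.77 to -0.22 (without the first and the second 72 h library) and the 96 h change from -0.65 to -0.17 (without the second and the first 96 h library). Its promoter interval covered chr2:132253078-132253531 (mm10, medians of the 8 libraries), over the start of the gene.

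Among the helicase genes Mcm3 differed most at 48 h. Its fold enrichment was 20.2 and 16.8 at 0 h, 10.4 and 7.03 after 48 h, 16.6 and 15.7 after 72 h, and 15.6 and 19.6 after 96 h, so that the 48 h values stood below all others. The normalized change was -0.70 ± 0.21 at 48 h (limma, adjusted p = 0.315) and -0.06 at 72 h, and the 48 h change was -1.04 without the first 48 h library and -0.35 without the second. Mcm6 had 11.9 and 9.85 at 0 h, 5.56 and 5.78 after 48 h, 9.56 and 5.19 after 72 h, and 7.05 and 10.3 after 96 h, with a 48 h change of -0.55 ± 0.29. Here the second 72 h library was below the 48 h libraries, and the 96 h libraries lay on either side of the second 0 h value.

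The other members of the hexamer differed less. Mcm7 had 13.6 and 14.4 at 0 h against 9.03 and 6.79 after 48 h, 12.5 and 11.4 after 72 h, and 12.1 and 12.0 after 96 h. Mcm5 had 16.5 and 14.7, then 7.27 and 10.9, 13.5 and 11.7, and 10.1 and 12.8. Their normalized 48 h changes were -0.41 ± 0.20 and -0.37 ± 0.20, the latter at 0.092 with a window of 500 bp. Without the first 48 h library they were -0.69 and -0.13, and without the second -0.14 and -0.62. Mcm4 had 11.8 and 13.7, 10.7 and 8.82, 10.3 and 9.50, and 9.97 and 10.6, and Mcm2, the weakest of the 6, had 5.50 and 8.08, 4.81 and 4.98, 5.69 and 5.42, and 4.14 and 4.94. Relative to other promoters Mcm4 was at 0.05 ± 0.20 and Mcm2 at -0.10 ± 0.27, both within 1 SE of 0 at 48 h. All 7 MCM genes, with Mcm10, were below 0 at 72 h and at 96 h (medians -0.17 and -0.20), and 6 of 7 at 48 h (median -0.37), none of them called.

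The licensing factor Cdc6, which opens the way for MCM loading, was also lower in both 48 h libraries than in the other 6. It had 15.3 and 16.6 at 0 h, 6.40 and 8.43 after 48 h, 15.1 and 10.6 after 72 h, and 10.4 and 13.9 after 96 h, and a normalized 48 h change of -0.69 ± 0.21 (limma, adjusted p = 0.315). Its partner Cdt1 had 11.6 and 16.5 at 0 h, 6.63 and 11.3 after 48 h, 9.12 and 10.9 after 72 h, and 8.86 and 9.62 after 96 h, which gave -0.25 ± 0.25, -0.34 ± 0.25 and -0.48 ± 0.25. Each of these changes was within 2 SE of 0, and without 1 library they ran from -0.59 to 0.094, -0.58 to -0.096 and -0.72 to -0.24. Orc1 to Orc4 and Gmnn were between -0.13 and 0.06 after 48 h, Orc5 was at -0.35 ± 0.19 and Orc6 at -0.49 ± 0.24. Orc5 was at -0.095 without the first 48 h library and -0.60 without the second, and Orc6 at -0.32 without the first 0 h library and -0.66 without the second.

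At 48 h the clamp and loader genes had a median change of -0.39 and the polymerase and primase genes one of -0.12. Rfc2, a small subunit of the loader, was at -0.60 ± 0.19, Rfc5 at -0.42 ± 0.23 and Rfc4 at -0.35 ± 0.27, whereas Rfc1 was at -0.15 ± 0.27 and Rfc3 at 0.11 ± 0.17. Without the first 48 h library Rfc2, Rfc5 and Rfc4 were at -0.39, -0.26 and -0.042, and without the second at -0.82, -0.58 and -0.68. With 1 library left out, Rfc1 ran from -0.20 to -0.096. Pola2, the regulatory subunit of polymerase alpha, was at -0.56 ± 0.24, and Pole at -0.39 ± 0.14, whereas Pold1 was at -0.20, Pola1 at -0.04 and Prim1 at 0.06. For Prim1 and Pola1 the normalized 48 h values lay on either side of both 0 h values, so the sign depended on the library. They were 4.14 and 3.43 against 3.76 and 3.70 for Prim1, and 3.68 and 3.93 against 3.79 and 3.91 for Pola1. Pola2 was at -0.82 without the first 48 h library and -0.31 without the second. Pole had fold enrichments of 19.6 and 20.2 at 0 h, 11.1 and 11.9 after 48 h, 18.4 and 17.0 after 72 h, and 15.7 and 15.5 after 96 h, with little spread within a time point.

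Of the nucleotide supply genes, Rrm1, the large subunit of ribonucleotide reductase, had 20.2 and 22.6 at 0 h, 11.3 and 14.0 after 48 h, 18.9 and 14.4 after 72 h, and 15.5 and 18.9 after 96 h. Its normalized change was -0.37 ± 0.16 at 48 h and -0.27 ± 0.16 at each later time, and without 1 library it ran from -0.47 to -0.25, -0.42 to -0.11 and -0.39 to -0.15. Rrm2, the small subunit whose amount limits the enzyme in S phase, had 11.4 and 9.11, 7.56 and 7.87, 8.64 and 8.49, and 10.1 and 9.35, and was at 0.03 ± 0.21 at 48 h. Rrm1 thus stood lower after PHx in all 6 libraries, and Rrm2 did not differ from the general fall in fold enrichment at 48 h beyond its error. Tyms was at 0.01 ± 0.19.

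The 3 genes with the largest positive change at 48 h did not gain enrichment as deposited. Prim2 had 11.8 and 9.47 at 0 h, 10.2 and 10.9 after 48 h, 11.3 and 10.8 after 72 h, and 11.1 and 11.6 after 96 h. Rpa1, the large RPA subunit, had 12.7 and 10.3, 9.66 and 12.4, 10.8 and 12.1, and 9.66 and 9.23. Cdc7, the kinase that fires licensed origins, had 12.0 and 10.8, 10.9 and 10.7, 13.4 and 12.7, and 12.2 and 12.2. Their values overlapped between 0 and 48 h while those of most promoters were lower at 48 h, so their normalized changes were 0.43 ± 0.19, 0.37 ± 0.20 and 0.36 ± 0.18 (limma, adjusted p = 0.468, 0.577 and 0.525). Without 1 library they ran from 0.26 to 0.60, 0.21 to 0.54 and 0.27 to 0.46. The firing genes other than Cdc7 were between -0.14 and 0.02 after 48 h.

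At 72 h 1 of the 43 genes was lower at an unadjusted p under 0.05 (2.33%, against 2.71% of all promoters) and none higher (against 3.54%). It was Pola1, the catalytic subunit of polymerase alpha, at -0.48 ± 0.20 (limma, adjusted p = 0.755), with 15.5 and 16.9 at 0 h, 10.3 and 13.2 after 48 h, 10.6 and 10.5 after 72 h, and 11.1 and 16.8 after 96 h. At 96 h it was Prim1, the catalytic primase subunit, at -0.64 ± 0.29 (adjusted p = 0.999), again 2.33%, against 2.28% of all promoters lower, and none was higher against 2.39%. Prim1 had 15.1 and 14.8 at 0 h but 12.1 and 6.13 after 96 h, and its change was -1.12 without the first 96 h library and -0.17 without the second. With another fit that kept both libraries of each time point, the number lower ran from 1 to 4 at 72 h (4 with only the 2 groups compared). At 96 h it ran from 0 (no trend) to 2 (replicate block). Without 1 library the Pola1 change at 72 h ran from -0.54 to -0.42. In the fit with 4 lower at 72 h, 4.35% of all promoters were lower, and in those with 0 and 2 lower at 96 h, 2.24% and 2.27% were. The medians over the 43 genes were -0.14 with 33 below 0 at 72 h, and -0.09 with 28 below 0 at 96 h. Of all promoters 51.0% and 49.8% were below 0 at these times. The 0 h libraries were common to all 3 comparisons, which therefore share their deviations.

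**Figure D4:**
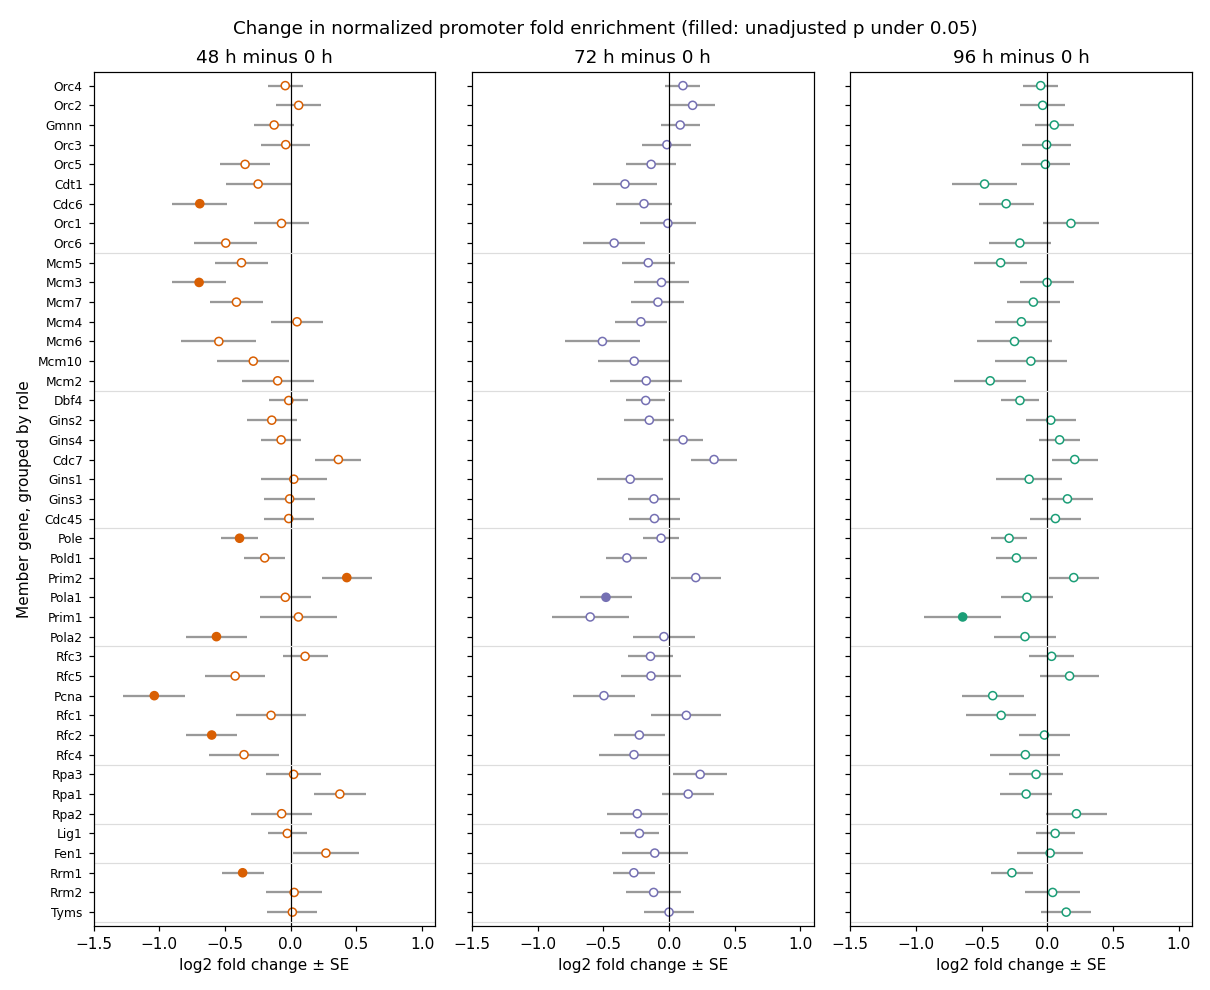
Change in normalized log2 fold enrichment (horizontal axis, point with SE) of each gene's promoter at 48, 72 and 96 h against 0 h, in rows grouped by role; filled points have an unadjusted p under 0.05 by limma. At 48 h 8 points are filled, from Pcna at -1.04 to Prim2 at 0.43, and at 72 and 96 h only Pola1 and Prim1.

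Between time points after PHx, no promoter was called either. Comparing 72 h with 48 h, 5 of the 43 genes were higher and 2 lower at an unadjusted p under 0.05, against 3.40% of all promoters higher and 2.31% lower. Comparing 96 h with 48 h, 4 were higher and 2 lower, against 3.24% and 3.18%. Pcna and Mcm3 were among those higher in both comparisons, and Prim1 among those lower. Both comparisons use the same 2 libraries at 48 h and share their deviations, also with the comparison of 48 h with 0 h. Between 96 and 72 h none of the 43 passed, against 1.48% higher and 1.80% lower. The lowest adjusted p of the 43 genes in these comparisons was 0.713 (limma).

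The same question was put to the ranks within each list, whose length differed between libraries. At 48 h 19 of the 43 promoters (44.2%) ranked below both 0 h libraries in both libraries, against 29.2% of all promoters tested, and 2 (4.65%), Cdc7 and Prim2, ranked above, against 16.3%. At 72 h 17 (39.5%) ranked below, against 32.1%, and 1 (2.33%) above, against 14.7%. At 96 h 7 (16.3%) ranked below, against 20.0%, and 1 above, against 13.6%. With 2 libraries against 2 an exact permutation test cannot go below p = 0.333, so these counts were not tested.

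**Figure D5:**
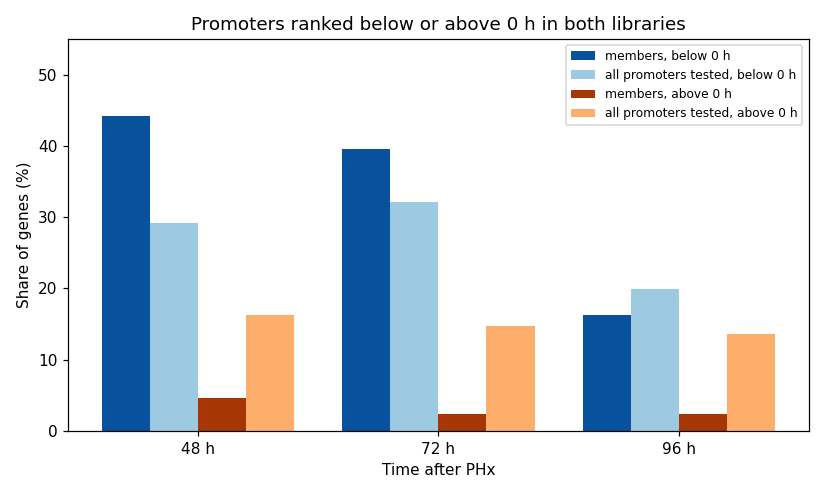
Share of promoters (in %) whose rank in both libraries of a time point was below (blue) or above (orange) that in both 0 h libraries, for the 43 replication genes (dark bars) and all promoters tested (light bars). The dark blue bars are 44.2, 39.5 and 16.3%, beside 29.2, 32.1 and 20.0% for all promoters.

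These counts depended on the scale. With intervals ranked by fold enrichment in place of −log10 p, 15 of the 43 were below and 3 above at 48 h, 19 and 4 after 72 h, and 6 and 2 after 96 h, against 20.1% below and 20.2% above, 26.8% and 14.4%, and 14.7% and 14.6% of all promoters. When the percentile of fold enrichment among the 13220 promoters replaced the rank in the whole list, 15 of the 43 were below and 3 above at 48 h, 14 and 4 after 72 h, and 11 and 4 after 96 h, against 19.8% below and 21.4% above, 20.2% and 19.9%, and 15.5% and 16.5% of all promoters. With the percentile in the whole list the counts were 18 and 3, 10 and 4, and 7 and 10, so that at 96 h more of the genes stood above than below. Among all promoters 22.8% were below and 19.7% above at 48 h, and the split turned at 72 and 96 h (17.2% below and 25.4% above, 12.4% and 21.5%). At 48 h more genes stood below than above on each of these scales.

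By rank, 3 genes separated 0 h from every PHx library. Cdc7 ranked 15537 and 23590 at 0 h, and 7730 and 12062 after 48 h, 9910 and 9462 after 72 h, and 9797 and 8932 after 96 h, so all 6 PHx libraries were above both 0 h libraries (2.33% of the 43 were so placed, against 4.15% of all promoters). Rrm1 ranked 1897 and 1502 at 0 h, then 3493 and 2510, 2101 and 5052, and 4439 and 2316. Pold1, the catalytic subunit of polymerase delta, ranked 2667 and 2308 at 0 h, then 2914 and 4794, 5920 and 7671, and 6278 and 3409. These 2 were below 0 h in all 6 PHx libraries (4.65% of the 43, against 7.69% of all promoters). Which genes separated depended on the libraries and on the scale. Without the first 0 h library 16 genes were below and 2 above (against 23.0% and 13.1% of all promoters), without the second 0 h library 7 and 5 (15.0% and 8.79%), and without the second 96 h library 7 and 1 (13.9% and 6.02%), while leaving out any other library gave 2 or 3 below and 1 above. Ranked by fold enrichment, Pcna, Pole and Mcm5 were below in all 6 and Cdc7 above, and by percentile among the promoters tested Pcna, Pole, Mcm7, Pold1 and Rrm1 were below and Cdc7 and Prim2 above. The margins were small, with ranks of 1897 and 2101 on either side of the gap for Rrm1 and 2667 and 2914 for Pold1, while for Cdc7 they were 15537 and 12062. Pold1 had fold enrichments of 17.3 and 18.7 at 0 h, 11.8 and 11.7 after 48 h, 13.8 and 12.6 after 72 h, and 13.3 and 15.7 after 96 h.

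By role, beside the 29.2% of all promoters below 0 h at 48 h, the genes below were 4 of 9 licensing genes, 4 of 7 MCM genes, 2 of 7 firing genes, 3 of 6 polymerase and primase genes and 4 of 6 clamp and loader genes, with 1 of 3 RPA genes, 0 of 2 joining enzymes and 1 of 3 nucleotide supply genes. At 96 h the 7 were Cdt1, Mcm2, Dbf4, Pole, Pold1, Prim1 and Rrm1.

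The E2F letters and the change at 48 h were set side by side. Of the 12 genes with E2F letters 11 were below 0 at 48 h (median -0.13, from -0.70 in Mcm3 to 0.11 in Rfc3). Of the 31 without, or with no window, 20 were below 0 (median -0.07, from -1.04 to 0.43). The ranges overlap, and the largest fall, that of Pcna, was in a promoter with no E2F letters in its window.

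Other genes of the same pathway were looked at as a list of 36 (further polymerase subunits, checkpoint and fork protection factors, alternative clamp loaders and others), of which 34 were tested. None was called at any time. At an unadjusted p under 0.05, Pole2, the second subunit of polymerase epsilon, was lower at 48 h (-0.72 ± 0.20, limma adjusted p = 0.290). At 72 h the nuclease and helicase Dna2 was at 0.44 ± 0.17 and the polymerase delta subunit Pold2 at -0.44 ± 0.20, and at 96 h the checkpoint adaptor Topbp1 at -0.47 ± 0.16. Without 1 library Pold2 ran from -0.67 to -0.21. The medians were -0.05, -0.03 and -0.05.

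Beyond the strongest promoter interval of each gene, all intervals in the gene bodies and 10 kb on either side were counted. Promoters of neighbouring genes and other starts of the same gene can therefore be among them. The replication genes had a median of 4 such intervals per library, against 4.5 for all coding genes tested, over a shorter median span (37.3 against 44.8 kb). None of them was among the 50000 strongest, at the median over libraries, for 15 of 43 genes (34.9%), against 17.6% of all. Mcm10, which ties the helicase to polymerase alpha, had the most. It held 14 and 10 intervals at 0 h, 9 and 8 after 48 h, 9 and 10 after 72 h, and 12 and 5 after 96 h. Prim2, a gene with a long span of 236 kb, held 5 and 3, 13 and 13, 5 and 13, and 4 and 12, but at most 1 among the 50000 strongest in any library. Rpa1 held 8 and 9, 6 and 7, 8 and 9, and 11 and 8. Rpa3 had none in any list.

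The intervals among the 50000 strongest of each library merged to 86 regions at the replication genes, of which 28 (32.6%) were present in all 8 libraries, against 34.5% of 47492 regions at all coding genes. Gained regions were those in both libraries of a time point and absent from both at 0 h, and lost regions the opposite. At 48 h 5 of the 86 were gained and 2 lost, against 2.85% gained and 3.79% lost over all regions. At 72 h 4 were gained and 4 lost, against 2.92% and 2.93%, and at 96 h 1 was gained and 1 lost, against 2.24% and 2.72%. In all but 1 of these cases the region was in at least 1 full list of the group it was counted as absent from. The exception was gained at 48 h, at chr4:132782204-132782725 (mm10), in a UTR of Themis2, 14153 bp from the start of Rpa2, with ranks 42768 and 47338 after 48 h, 60336 and 129981 after 72 h, and 123855 in the first 96 h library, and it was in no list at 0 h nor in the second 96 h list.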

How the data were processed

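Chromatin accessibility of mouse hepatocytes was profiled by bulk ATAC-Seq before PHx and 48, 72 and 96 h later, with 2 libraries per time point. Per the study's methods, the authors trimmed reads, aligned them to mm10 with Bowtie2, removed PCR duplicates and called peaks per library with MACS2 in the ENCODE pipeline; versions are not given in the sources used here. The deposited lists hold, per peak, a fold enrichment (ratio over local background), a −log10 p, a −log10 q and a display score. The score entered no comparison. Depth is unknown, and no confidence interval was computed.

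Lines sharing an interval were collapsed to that with the highest −log10 p and ranked. Promoter intervals lay within 1 kb of a start site (GENCODE M21, mm10, coding genes). Log2 fold enrichment was quantile-normalized and fitted with limma 3.58.1 in R 4.3.3 (all 8 libraries, mean-variance trend), with Benjamini-Hochberg adjustment over 13220 promoters and the thresholds that the study gives for its own test on reads (adjusted p under 0.05, log2 change over 0.5). The fit was run on simulated data with the same spread for every promoter and known changes in 200 promoters. This does not show how small a change could be detected in the real data. Named with values per library were the 3 largest changes each way at 48 h, the 3 best and worst ranks, the 3 genes with most other intervals, those separating 0 h from all PHx libraries, and Mcm2 to Mcm7, Cdc6, Cdt1, Pcna and Rrm2; other genes with an unadjusted p under 0.05 were added after their values were seen. The genes and lists were chosen with earlier results of these data known. Alternatives covered the measure, normalization, filters, windows and left-out libraries.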

Additional observations from a re-analysis of the deposited data

How the results depend on the processing

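No replication gene was called at 48, 72 or 96 h under any alternative fit, nor with any 1 library left out. 37 changes of single promoters given with an error or an unadjusted p were recomputed under 18 alternatives each, none was called (lowest adjusted p 0.145, Pcna at 48 h, limma), and 11 of 666 values turned in sign. They were Mcm5 at 48 h with a window of 500 bp (0.092) and, without 1 library, Mcm4 (from -0.15 to 0.24), Mcm2 (-0.36 to 0.15), Cdt1 (-0.59 to 0.094), Rfc3 (-0.093 to 0.32), Rrm2 (-0.14 to 0.20) and Tyms (-0.11 to 0.13) at 48 h and Mcm3 at 72 h (-0.22 to 0.10), where the 0 h or 48 h library left out set the sign. Over all promoters, calls rose from 0 to 13, 4 and 2 (48, 72 and 96 h) with −log10 p as the measure, to 1 at 48 h and 1 at 96 h when only the 2 groups compared were fitted, and to 0 to 6, 0 to 3 and 0 to 1 without 1 library. The median change of the 43 genes at 48 h was -0.20 with −log10 p, and ranged without 1 library from -0.23 to -0.0052 (without the second 0 h library), at 72 h from -0.21 to -0.06 and at 96 h from -0.13 to 0.00072 (without the first 96 h library). Rank-order counts at 72 h were 10 below and 4 above by percentile within the list, and 4 above by fold enrichment rank or by percentile among promoters tested, a scale added after seeing the data. At 96 h they were 10 above by percentile, 2 above by fold enrichment rank, and 11 below and 4 above among promoters tested. Leaving out a library can only loosen the order, and the counts below then ran from 19 to 31, 17 to 32 and 7 to 28, and those above from 2 to 11, 1 to 8 and 1 to 14, the highest below without the first 0 h library (48 and 72 h) or the second 96 h library, with 26 at 72 h without the first 72 h library. The shares of all promoters rose with them, to 45.2, 48.6 and 45.5% below in the settings with the highest counts below, and to 26.8, 25.1 and 35.5% above in those with the highest counts above. Every left-out library of the 2 groups compared raised the counts above.

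Same-numbered libraries did not deviate together (r from -0.11 to 0.17 over 6 pairs of groups, across genes), so the replicate block is only an alternative: it called 0 genes at each time, and paired rank order gave 22, 24 and 16 below and 3, 1 and 5 above, against 38.3, 40.6 and 30.1% and 22.0, 19.7 and 21.3% of all promoters. Among the 25000 strongest, 1 and 4 of 42 regions at the replication genes were gained and lost at 48 h (2.38% and 9.52%, against 3.88% and 4.52% of all 24283 regions) and 1 and 2 after 72 h (2.38% and 4.76%, against 3.65% and 3.38%). With all intervals 8, 9 and 7 of 355 were gained (2.25, 2.54 and 1.97%, against 1.12, 2.89 and 1.61% of 216028 regions) and 6, 2 and 5 lost (1.69, 0.563 and 1.41%, against 1.90, 0.786 and 1.09%) at the 3 times. With 5 kb on either side 1 of 59 was lost at 48 h (1.69%, against 3.91% of 42059) and 0 gained at 96 h (against 2.28%). Without 1 library gains ran from 5 to 11, 4 to 9 and 1 to 7, and losses from 2 to 8, 4 to 11 and 1 to 7, while the shares of all regions rose to as much as 8.83, 8.31 and 7.95% gained and 9.69, 8.81 and 8.35% lost (48, 72 and 96 h). Within the 25000 strongest in every library were 25 of the 43 promoters, against 42 within 50000. With no read counts, no limit of detection could be set.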
